A study of Mus musculus with 18 samples.

Results

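RNA of 8 genes was followed here in natural killer (NK) cells with and without Eomes: the amino acid transporter genes Slc7a5, Slc3a2, Slc7a6, Slc1a5, Slc38a1 and Slc38a2, the transferrin receptor gene Tfrc, and Myc. They were chosen by name as nutrient uptake genes together with Myc, out of 41388 genes listed in each library, and all 8 passed the filter on low counts that left 14156 tested genes. The study asked how loss of the T-box factor Eomes, which NK cells need to mature, alters their RNA at successive stages. Pooled spleens of C57BL/6 mice aged 8 to 12 weeks were sorted and sequenced in 3 separate experiments according to the labels. The KO groups came from mice that carried Ncr1-iCreERT2 (KI/WT), the reporter Rosa26YFPLSL and Eomesfl/fl, and were given tamoxifen for 3 days, so that deletion was driven from the Ncr1 locus, which is active in NK cells and other innate lymphoid cells that carry NKp46. The WT groups are labelled only as WT. Whether WT mice carried Cre or the reporter is not stated, and whether they received tamoxifen is uncertain, so effects of these cannot be told apart from that of Eomes deletion. In each genotype, stage II cells were CD27+CD11b-, stage III cells CD27+CD11b+ and stage IV cells CD27-CD11b+, which made 6 groups of 3 libraries.

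Amino acid uptake limits how far a lymphocyte can grow. Slc3a2 encodes CD98, the heavy chain that carries light chains to the cell surface: with Slc7a5 (LAT1) it exchanges glutamine for leucine and other large neutral amino acids, and with Slc7a6 (y+LAT2) it exchanges cationic for neutral ones. Slc1a5 (ASCT2), Slc38a1 (SNAT1) and Slc38a2 (SNAT2) carry glutamine and other small neutral amino acids into the cell, and Tfrc (CD71) takes up iron bound to transferrin. Myc is a transcription factor that drives growth genes, and in activated NK cells it depends on amino acid supply through Slc7a5. In resting lymphocytes CD98, CD71 and Myc are low, and activation raises them.

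The libraries held 18684350 to 28365837 counts. Eomes RNA was lower in every KO library than in every WT library of its stage, by 1.70 ± 0.15 (log2, SE) at stage II, 0.69 ± 0.15 at stage III and 1.28 ± 0.15 at stage IV (edgeR adjusted p = 1.15e-05, 0.0143 and 2.74e-04). Of 12 NK cell markers, Ncr1 had at least 34920 counts and Klrb1c at least 45470 in each library. Over the mean of the stages, 5 of the 12 were called lower in KO and 0 higher, beside 5.45% of tested genes called. Eomes itself, Itgam and Prf1 were among them. At stage II the 12 summed to 23220 to 25570 CPM (counts scaled to library size) in WT and 17510 to 19770 CPM in KO. The sums of the genotypes overlapped at stages III and IV. KO stage III replicates 1 and 3 stood apart, with 14824 and 16536 genes detected against 21454 in replicate 2. All 6 replicate 1 libraries had low immediate early RNA, 2763 to 3877 CPM summed over 20 genes such as Fos and Egr1, against 4137 to 11230 in the other 12. Xist RNA was under 1 CPM in WT replicates 2 and 3 of each stage and at least 5.66 CPM in the other 12 libraries, so WT replicates 2 and 3 differed in the sex of the pool from WT replicate 1 and from the KO libraries. Xist was at 35.5 to 45.2 CPM in WT replicate 1 and at 5.66 to 36.1 CPM in KO libraries. The KO pools therefore need not match WT replicate 1 in sex. No KO library lacked Xist RNA. A term for the sex of the pool, a cut at 1 CPM of Xist, is thus estimated only from WT replicate 1 against WT replicates 2 and 3. With it, KO is in effect set against the WT replicate 1 libraries, so sex and replicate cannot be told apart. Without the 6 replicate 1 libraries, every WT library left is under 1 CPM of Xist and every KO library is above it. Genotype and sex of the pool cannot be told apart in such a fit. In bulk RNA, fewer cells of a type and less RNA per cell cannot be told apart.

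Of the 8 genes, 4 had an entry in the RefSeq promoter table (GRCm38.p6). The sequences upstream of Slc3a2 and Slc38a2 are shown because, within groups, the RNAs of those genes deviated from the group mean together more closely than any other pair of the 8. Each line gives the 250 bases before a RefSeq start, 5′ to 3′, with the sequence in lower case and any match to TGACG, a cAMP response half-site, or to the TATA box letters TATAA in capitals. The Slc3a2 window lies at chr19:8713898-8714147, minus strand, inside the gene's listed span, and the Slc38a2 window at chr15:96699729-96699978, minus strand.
Slc3a2: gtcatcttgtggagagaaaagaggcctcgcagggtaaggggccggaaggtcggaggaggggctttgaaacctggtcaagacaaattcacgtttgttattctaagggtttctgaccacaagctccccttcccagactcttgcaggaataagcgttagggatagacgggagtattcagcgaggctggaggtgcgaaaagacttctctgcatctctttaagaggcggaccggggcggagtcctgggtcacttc
Slc38a2: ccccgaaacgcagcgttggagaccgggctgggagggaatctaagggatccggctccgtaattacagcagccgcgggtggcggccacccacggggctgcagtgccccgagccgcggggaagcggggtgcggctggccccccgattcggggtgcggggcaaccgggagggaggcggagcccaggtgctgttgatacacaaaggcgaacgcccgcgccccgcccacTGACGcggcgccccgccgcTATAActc
The Slc38a2 window had TGACG starting 27 bases and TATAA starting 8 bases before the listed start, and the Slc3a2 window had neither. Among 32851 RefSeq promoters of 300 bases (250 before to 50 after the start), 20.8% held TGACG and 24.9% TATAA on either strand. The E-box CACGTG (7.15% of promoters), the T-box core GGTGTGA (3.98%) and the amino acid response element TGATGNAA (3.97%) were absent from the 300-base windows of Slc3a2, Slc38a2, Slc7a6 and Tfrc, which says only that these letters are not there.

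Levels per gene length set the 8 genes far apart. In RPKM (counts scaled to gene length and library size), as deposited, the heavy chain Slc3a2 ranged from 46.2 to 108 over the 18 libraries and its light chain Slc7a5 from 0.28 to 1.76. The other light chain, Slc7a6, stood at 3.58 to 8.33 RPKM, above Slc7a5 in each of the 18 libraries. The ratio of Slc3a2 to Slc7a5 RPKM was 42.8, 108 and 144 in WT stage II (lowest, median, highest), 88.8, 111 and 174 in WT stage III, and 105, 211 and 256 in WT stage IV. In KO cells it was 56.5, 62.9 and 80.2 at stage II, 26.2, 40.1 and 63.9 at stage III, and 62.7, 128 and 140 at stage IV. The stage III ranges of the 2 genotypes did not overlap. For the glutamine carriers, Slc1a5 ranged from 19.0 to 51.0 RPKM, Slc38a1 from 10.04 to 20.8 and Slc38a2 from 40.4 to 86.1. Tfrc was at 0.82 to 3.40 RPKM, and Myc at 11.8 to 95.

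**Figure D1:**
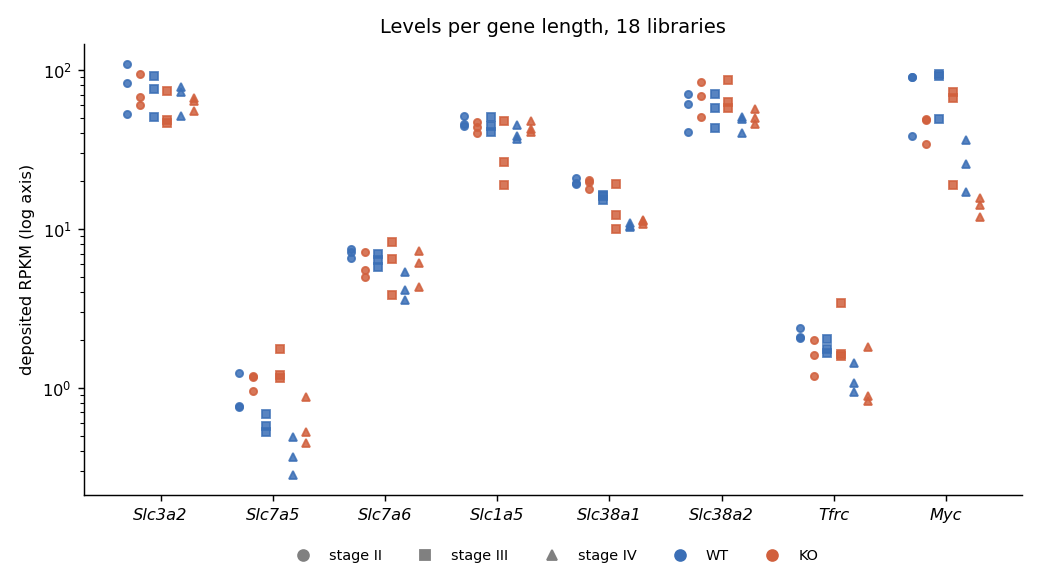
Deposited RPKM (log axis) of each gene in each of the 18 libraries; symbols give the stage, colours the genotype. Slc3a2 lies between 46.2 and 108 RPKM, while its light chain Slc7a5 lies between 0.28 and 1.76.

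Slc7a5 was the only 1 of the 8 genes called changed between KO and WT, and it was higher in KO cells at stage III. CPM of the 8 genes was TMM-scaled, while summed CPM of gene lists and CPM of Xist were scaled to library totals only. At stage III the CPM of Slc7a5 was 2.05, 2.59 and 1.99 in WT and 7.4, 4.20 and 5.69 in KO replicates 1, 2 and 3. Every KO library was above every WT library, with KO replicate 1 highest. The gene (ENSMUSG00000040010, GRCm38 chr8:121881150-121907694, minus strand) was 2.60-fold higher in KO, a log2 difference of 1.38 ± 0.31 (SE, edgeR adjusted p = 0.0195). At this stage 7.9% of tested genes were called, and 5.16% of tested genes were called higher in KO, against 1 of these 8. The groups did not overlap with KO higher for 9.29% of tested genes. The values rested on 46 to 130 counts per library.

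At stage II Slc7a5 was at 4.06, 2.82 and 2.75 CPM in WT and 3.32, 4.16 and 4.23 CPM in KO libraries, with overlap. The log2 difference was 0.28 (95% interval -0.37 to 0.93, edgeR adjusted p = 0.947). At stage IV it was at 1.77, 1.08 and 1.4 CPM in WT and 3.22, 1.98 and 1.61 CPM in KO. KO replicate 3 lay within the WT range there, and the log2 difference was 0.67 (-0.01 to 1.35, adjusted p = 0.916). The KO effect at stage III exceeded that at stage II by 1.10 ± 0.44 (log2), which did not pass (edgeR adjusted p = 0.382), so no difference between stages was shown. Averaged over the 3 stages, Slc7a5 was higher in KO by 0.78 ± 0.18 (adjusted p = 0.0168), where 5.45% of tested genes were called and 2.93% were higher.

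The stage III call was lost without any 1 of the 3 WT stage III libraries (log2 1.30 to 1.5, edgeR adjusted p = 0.064 to 0.103) and without KO replicate 1 (1.17, 0.0511). With KO stage III replicates 1 and 3 both left out the difference was 0.91 (adjusted p = 0.510), and with a term for the sex of the pool 1.16 (0.084). It was also lost with only the groups compared (1.38, 0.349) and without the 6 replicate 1 libraries, an alternative added after the data were seen (1.10, 0.0981). That last fit sets KO libraries with Xist RNA against only WT libraries without it. The mean over stages was 0.62 (0.0724) without KO stage III replicates 1 and 3 and 0.58 (0.319) with the sex term. Markers of type 1 innate lymphoid cells moved the same way: their summed level over 10 genes was 124 to 148 CPM in WT stage III and 190 to 357 CPM in KO stage III, and 9 of the 10 were called higher. At stage II, where Slc7a5 was not called, the sums were 971 to 1636 CPM in WT and 1985 to 2399 CPM in KO, and 5 of the 10 were called higher. Their part in the result was not tested.

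**Figure D2:**
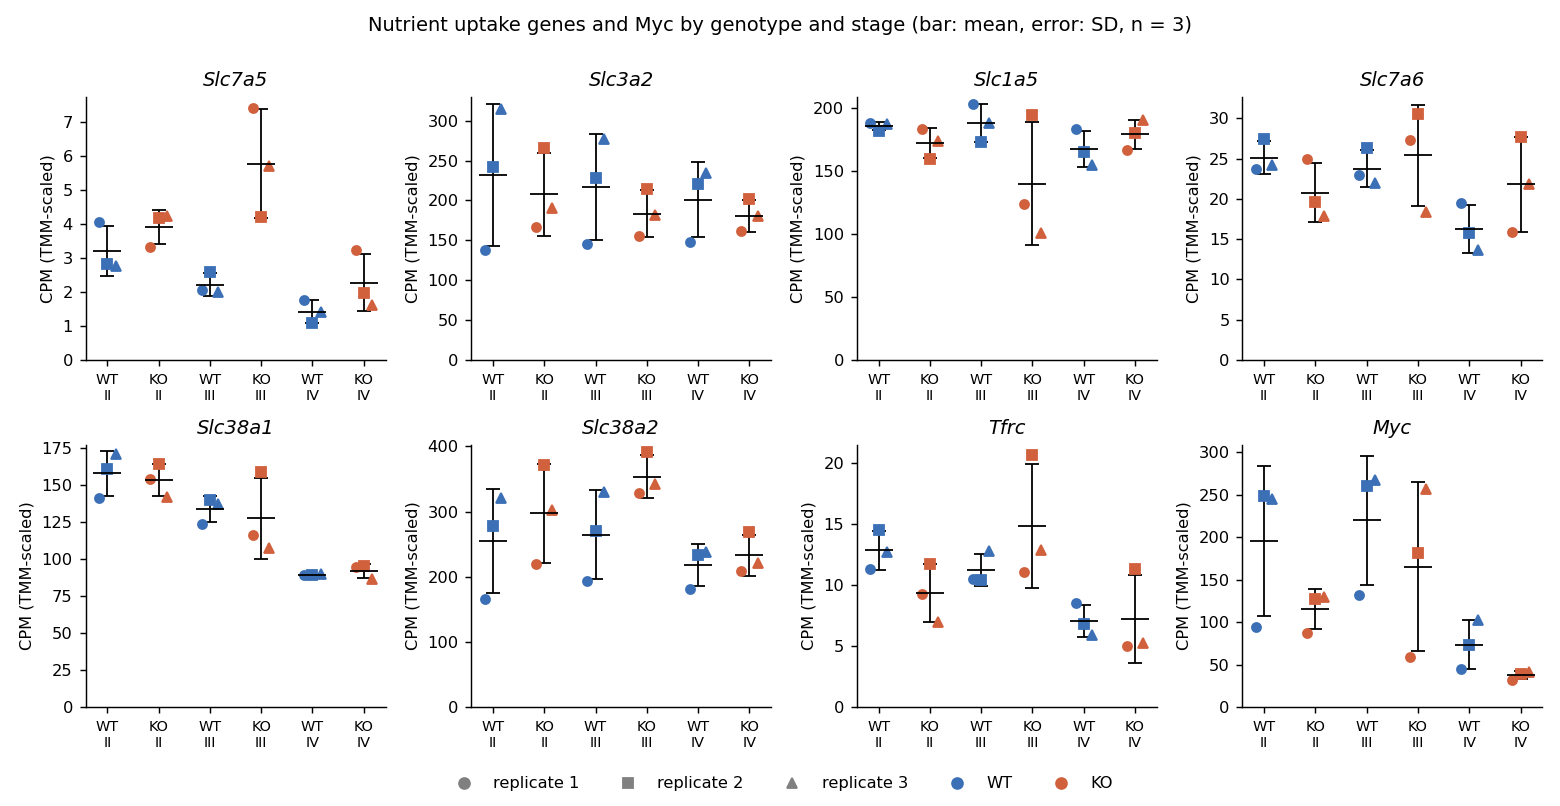
CPM of the 8 genes in each library (symbols, replicate number; colours, genotype), with the mean and SD of each group of 3 as a bar and whiskers; axes start at 0. Slc7a5 in KO stage III (4.20 to 7.4 CPM) lies above all WT stage III libraries (1.99 to 2.59 CPM), and Slc38a1 is lower at stage IV than at stage II in both genotypes.

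The heavy chain Slc3a2 (ENSMUSG00000010095, chr19:8706882-8723369, minus strand) was not called between genotypes at any stage. Its level at stage III was 145, 229 and 277 CPM in WT and 155, 214 and 182 CPM in KO replicates 1, 2 and 3. The groups overlapped, and the log2 difference was -0.24 (-0.83 to 0.35, edgeR adjusted p = 0.604). At stages II and IV the differences were -0.16 and -0.15, also with overlap. With a term for the sex of the pool the direction turned, to 0.45, 0.34 and 0.41 at stages II, III and IV. None of these was called (edgeR adjusted p at least 0.298). In effect this term sets KO against WT replicate 1, the lowest WT library of Slc3a2 at each stage. Slc7a6 (ENSMUSG00000031904, chr8:106168875-106198704, plus strand) differed by -0.27, 0.10 and 0.42 at stages II, III and IV, none of them called (adjusted p = 0.880, 0.797 and 0.993).

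Among the glutamine carriers, Slc1a5 (ENSMUSG00000001918, chr7:16781346-16798274, plus strand) split the KO stage III group. It was at 124, 195 and 101 CPM in KO replicates 1, 2 and 3, against 203, 173 and 188 CPM in WT. Replicates 1 and 3, those with few detected genes, were below all WT libraries and below all libraries of the other groups, while replicate 2 was within the WT range. The log2 difference was -0.43 (-0.79 to -0.06, adjusted p = 0.120), and without replicate 2 it was -0.75 and called (adjusted p = 3.15e-04). In the other 5 groups Slc1a5 kept within 155 to 203 CPM, a narrow range beside those of Myc and Slc3a2.

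Slc38a1 (ENSMUSG00000023169, chr15:96571418-96642913, minus strand) hardly separated the genotypes, with log2 differences of -0.04 (-0.32 to 0.24), -0.07 (-0.35 to 0.21) and 0.04 (-0.24 to 0.33) at stages II, III and IV. With the sex term they were 0.05, 0.02 and 0.13. Slc38a2 (ENSMUSG00000022462, chr15:96687394-96699698, minus strand) was at 194, 271 and 330 CPM in WT stage III and 328, 391 and 342 CPM in KO stage III. KO replicate 1 lay just within the WT range, and the log2 difference was 0.42 (-0.09 to 0.92, adjusted p = 0.255). It was called with a term for the sex of the pool (0.86, edgeR adjusted p = 0.0347), in effect against WT replicate 1, its lowest WT library. With a term for immediate early RNA, added after the data were seen, it was also called (0.52, 0.030).

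Tfrc (ENSMUSG00000022797, chr16:32608920-32632794, plus strand) was at 10.5, 10.5 and 12.8 CPM in WT stage III and 11.04, 20.6 and 12.9 CPM in KO stage III. Only KO replicate 2 stood above the rest, and the log2 difference was 0.40 (-0.23 to 1.04, adjusted p = 0.386). Tfrc is also abundant in red cell precursors, whose markers together with those of platelets (13 genes) summed to 8.71 to 24.4 CPM in KO stage III and 4.80 to 7.58 CPM in WT stage III. Of these 13 genes 10 were tested, and 90% of those had a positive difference at stage III (median 1.67), none of them called. Platelet genes were among the more counted ones, with up to 163 counts of Itga2b and 111 of Ppbp. Of the erythroid genes, the globin gene Hbb-bs had 12 to 96 counts per library and Ermap up to 88. Klf1 and Epor had at most 7 and 10 counts in any library. The 14 myeloid markers summed to 330, 658 and 388 CPM in KO stage III replicates 1, 2 and 3, and to 396 to 457 CPM in WT stage III. None of the 11 tested was called between KO and WT at stage III. Of these markers Itgax had 4541 to 12222 counts per library. The part of red cell precursors, platelets and myeloid cells in the level of Tfrc was not tested.

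Myc (ENSMUSG00000022346, chr15:61985341-61990374, plus strand) had lower means in KO at each stage, and none of the differences was called. At stage II it was at 94.2, 248 and 246 CPM in WT replicates 1, 2 and 3 and at 88.1, 128 and 130 CPM in KO. WT replicates 2 and 3 stood above all KO libraries, while WT replicate 1 was in the KO range. The log2 difference was -0.76 (-1.71 to 0.18, edgeR adjusted p = 0.736). At stage III the values were 132, 260 and 267 CPM in WT and 59.0, 181 and 257 CPM in KO, a wide overlap (log2 -0.41, adjusted p = 0.573). At stage IV they were 45.7, 73.2 and 103 CPM in WT and 32.3, 39.6 and 41.8 CPM in KO. The stage IV groups did not overlap, with KO lower, as was so for 6.46% of tested genes, and the log2 difference was -0.96 (-1.92 to -0.01, adjusted p = 0.890).

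The WT replicates that were high in Myc at stage II were those without Xist RNA, and they also had more immediate early RNA than WT replicate 1, so these features cannot be told apart within WT. With a term for the sex of the pool the KO against WT difference of Myc was 0.10, 0.40 and -0.16 at stages II, III and IV, and 0.11 over their mean (adjusted p = 0.891). Without the 6 replicate 1 libraries, an alternative added after the data were seen, it was -0.93, -0.27 and -1.11, and was called at stages II and IV (edgeR adjusted p = 0.0469 and 0.0363). That fit held only WT libraries without Xist RNA and only KO libraries with it. Genotype and sex of the pool cannot be told apart in these calls. The direction of the genotype difference of Myc thus turned with the sex term at stages II and III. Over the mean of the stages it was -0.71 ± 0.26 (adjusted p = 0.126).

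In all, 0 of 8 genes were called between KO and WT at stage II, where 1.46% of tested genes were, and 0 of 8 at stage IV, where 0.509% were. At an unadjusted p under 0.05 there were 0 of 8 at stage II and 1 of 8 at stage IV, which was Myc, and DESeq2 and limma's voom called none at either stage. For the differences of the KO effect between stages, edgeR called 0 of 8 genes in each of the 3 comparisons, with 1 of 8 at an unadjusted p under 0.05 in each. DESeq2 called none there, and voom called 1 in stage IV minus II. Among all tested genes 0.0494% were called in stage III minus II, 0.0283% in stage IV minus III and 0.212% in stage IV minus II.

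**Figure D3:**
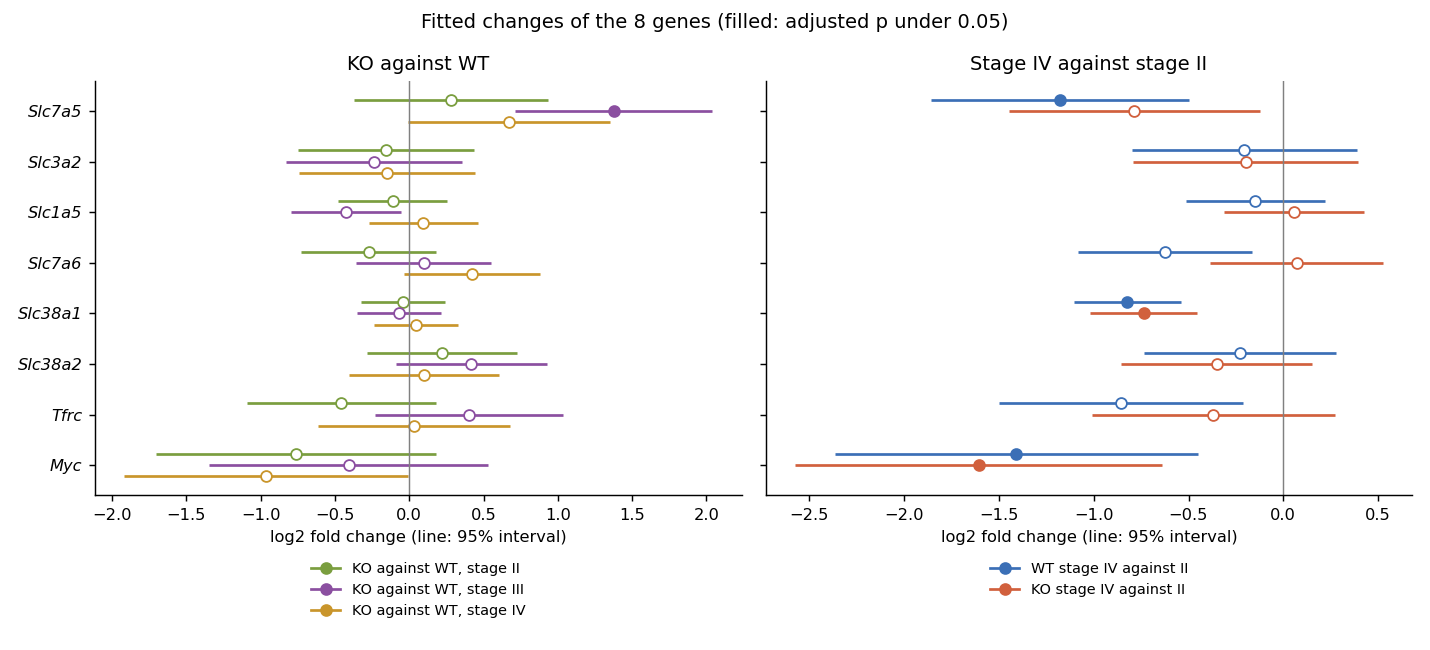
Fitted log2 fold changes of the 8 genes with 95% intervals, KO against WT at each stage (left) and stage IV against stage II in each genotype (right); filled points have an adjusted p under 0.05. Slc7a5 at stage III is the only filled point on the left (1.38), and Slc38a1 and Myc are filled for both genotypes on the right.

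All called differences between stages were falls into stage IV. In WT cells, 3 of 8 fell from stage II to stage IV and 0 rose, where 15.1% of tested genes were called and 9.82% were called lower. The 8 log2 differences were all below 0, with a median of -0.72 against -0.02 over all tested genes. The 2 stages did not overlap with stage IV lower for 4 of 8 genes, beside 22.3% of tested genes, and WT stage IV lay below stage III without overlap for 5 of 8, beside 16.2%. In KO cells, 2 of 8 fell from stage II to IV (14.9% called, 8.76% lower), with a median of -0.36 against 0.03, and 4 of 8 fell from stage III to IV (17.7% called, 11.4% lower), with a median of -0.54 against 0.03. Without overlap, stage IV lay lower than stage II for 3 of 8 KO genes (20% of tested genes) and lower than stage III for 4 of 8 (11.2%).

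Slc38a1 fell in both genotypes. In WT it was at 142, 161 and 172 CPM at stage II, at 124, 140 and 137 CPM at stage III and at 89.2, 89.2 and 89.8 CPM at stage IV. The 3 stages did not overlap (stage III lay below II without overlap for 13.4% of tested genes and for 2 of these 8), and the WT stage IV libraries lay within 1 CPM of each other. The drop from II to IV was -0.82 ± 0.13 in WT and -0.74 ± 0.13 in KO (log2, SE, edgeR adjusted p = 3.99e-04 and 8.07e-04), or 1.77-fold and 1.67-fold. Both calls held in each of the 18 fits that left out 1 library and under each of the 12 other settings tried. From stage III to IV it fell by 0.58 ± 0.13 in WT (adjusted p = 0.0207), where 3.17% of tested genes were called and 2.41% were lower, and by 0.47 ± 0.13 in KO (0.0236). The WT call was lost without any 1 of the WT stage III or IV libraries (adjusted p up to 0.155), with scaling by library totals (0.0812), with no filter on low counts (0.0733) and without the 6 replicate 1 libraries (0.127). The KO call was lost without KO stage III replicate 2, at -0.29, and without any 1 of the KO stage IV libraries (adjusted p 0.0596 to 0.0958). It was also lost with voom (-0.39, 0.139), with library totals (-0.32, 0.193), with no filter (0.0865), with only the groups compared (0.300) and without the 6 replicate 1 libraries (0.0897).

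Myc fell from stage III to IV in KO cells by 4.37-fold (log2 -2.13 ± 0.47, edgeR adjusted p = 0.00545), and the groups did not overlap: the lowest stage III library had 59.0 CPM and the highest stage IV library 41.8 CPM. With only those groups in the fit the adjusted p was 0.0723. From stage II to IV it fell by 1.61 ± 0.46 in KO (adjusted p = 0.0237). That call was lost without KO stage II replicate 2 or 3, or any 1 of the KO stage IV libraries (-1.51 to -1.68, adjusted p up to 0.103). In WT the drop from II to IV was -1.41 ± 0.45 (adjusted p = 0.0455), with overlap, since WT stage II replicate 1 (94.2 CPM) lay below WT stage IV replicate 3 (103 CPM). The WT call was close to the threshold: it was lost in 15 of 18 fits that left out 1 library, those keeping it being the fits without WT stage II replicate 1 and without KO stage III replicate 1 or 3 (differences over the 18 fits -1.75 to -1.14, adjusted p up to 0.218). From stage III to IV in WT the difference was -1.58 ± 0.46 with no overlap and an edgeR adjusted p of 0.079. The call was gained with the replicate number as a block (-1.58, adjusted p = 0.00146), where same-numbered WT libraries deviated together. It was also gained with DESeq2 (0.0337), voom (2.39e-04), the sex term (0.0177), only the groups compared (0.018) and without the 6 replicate 1 libraries (0.00274).

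Slc7a5 fell from stage II to IV in WT by 1.18 ± 0.32 (edgeR adjusted p = 0.0192), with no overlap between 2.75 to 4.06 CPM and 1.08 to 1.77 CPM. The call was lost without WT stage II replicate 1 (-0.99, adjusted p = 0.0804) and without WT stage IV replicate 2 or 3 (-0.98 and -1.13, 0.114 and 0.0757), and with no filter on low counts (-1.14, 0.0695). In KO cells it fell from stage III to IV by 1.35 ± 0.32 (adjusted p = 0.00823). That call was lost without KO stage IV replicate 3 (-1.15, 0.0505) and without KO stage III replicates 1 and 3 together (-0.90, 0.253), and with only the groups compared (-1.35, 0.201).

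Tfrc fell from stage III to IV in KO cells by 1.04 ± 0.31 (adjusted p = 0.0280), from 11.04, 20.6 and 12.9 CPM to 5.02, 11.4 and 5.31 CPM. In both groups replicate 2 was highest, and stage IV replicate 2 lay above stage III replicate 1. The call was lost without KO stage III replicate 2 (-0.73, edgeR adjusted p = 0.0815) and without KO stage IV replicate 1 or 3 (-0.84 and -0.85, 0.109 and 0.123). It was also lost with voom (-0.82, 0.264), with library totals (-0.90, 0.0709), with only the groups compared (-1.04, 0.270) and without the 6 replicate 1 libraries (-1.0, 0.119). In WT it was at 11.4, 14.5 and 12.7 CPM at stage II and 8.54, 6.80 and 5.93 CPM at stage IV, with no overlap and a log2 difference of -0.86 ± 0.30 that did not pass (0.0706). Slc7a6 had the same form in WT, from 23.7, 27.4 and 24.2 CPM to 19.5, 15.8 and 13.6 CPM (-0.62 ± 0.22, adjusted p = 0.0633), and in KO cells the stages overlapped (0.07 ± 0.22). Both WT differences were called with the replicate block (Tfrc -0.84, adjusted p = 0.0382, and Slc7a6 -0.63, 0.0389), which called 5 of the 8 genes from stage II to IV in WT, and also with DESeq2 (0.0345 and 0.0325), voom and only the groups compared.

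Slc3a2, Slc1a5 and Slc38a2 were not called between any stages. Slc38a2 was lower in KO stage IV (209, 269 and 221 CPM) than in KO stage III with no overlap (-0.60 ± 0.24, edgeR adjusted p = 0.0887). Slc1a5 was called without KO stage III replicate 2, lower in KO stage III than II (-0.61, 0.00139) and higher in KO stage IV than III (0.66, 5.52e-04). Their WT stage IV against II differences were -0.21, -0.15 and -0.23, with intervals of -0.80 to 0.39, -0.52 to 0.22 and -0.73 to 0.28. From stage II to III edgeR called 0 of 8 genes in WT, where 2.97% of tested genes were called, and 0 of 8 in KO, where 10.1% were. At an unadjusted p under 0.05 there were 0 of 8 in WT and 1 of 8, Tfrc, in KO. DESeq2 called none in either genotype, and voom called 1 in WT and none in KO.

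The order of the 6 group means differed by gene. Slc7a5 ran from KO III through KO II, WT II, KO IV and WT III to WT IV, and 4 of the 5 neighbouring pairs overlapped. Myc ran from WT III through WT II, KO III, KO II and WT IV to KO IV, with 4 of 5 neighbours overlapping, and Slc38a1 from WT II through KO II, WT III, KO III and KO IV to WT IV, with 3 of 5. For Slc3a2, Slc1a5, Slc7a6, Slc38a2 and Tfrc all 5 neighbouring pairs overlapped. WT stage IV was the lowest group for Slc7a5, Slc7a6, Slc38a1, Slc38a2 and Tfrc.

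Within groups, Slc3a2, Slc38a2 and Myc shared a spread that the other genes did not have in full. For each of these 3 genes replicate 1 was the lowest library in 6 of 6 groups, which was so for 2.78% of tested genes. The summed immediate early RNA was also lowest in replicate 1 in 6 of 6 groups. Slc7a5 and Slc1a5 had replicate 1 lowest in 1 of 6 groups, Slc7a6 and Slc38a1 in 2 and Tfrc in 3. As a description, Pearson's r of the deviations from group means over the 18 libraries was 0.96 between Slc3a2 and Slc38a2, 0.77 between Slc3a2 and Myc and 0.70 between Slc38a2 and Myc, and -0.46 between Slc3a2 and its light chain Slc7a5. These points share libraries, scaling and replicate number. KO stage III replicate 3 differed from this pattern for Myc, with 257 CPM, the highest of its group, and a summed immediate early RNA of 4137 CPM, below its group's mean. Of the 20 immediate early genes, 1 was called between KO and WT at stage III (Ier5, 1.01, higher in KO) and none from stage II to IV. The part of immediate early RNA and of the replicate number in these levels was not tested.

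**Figure D4:**
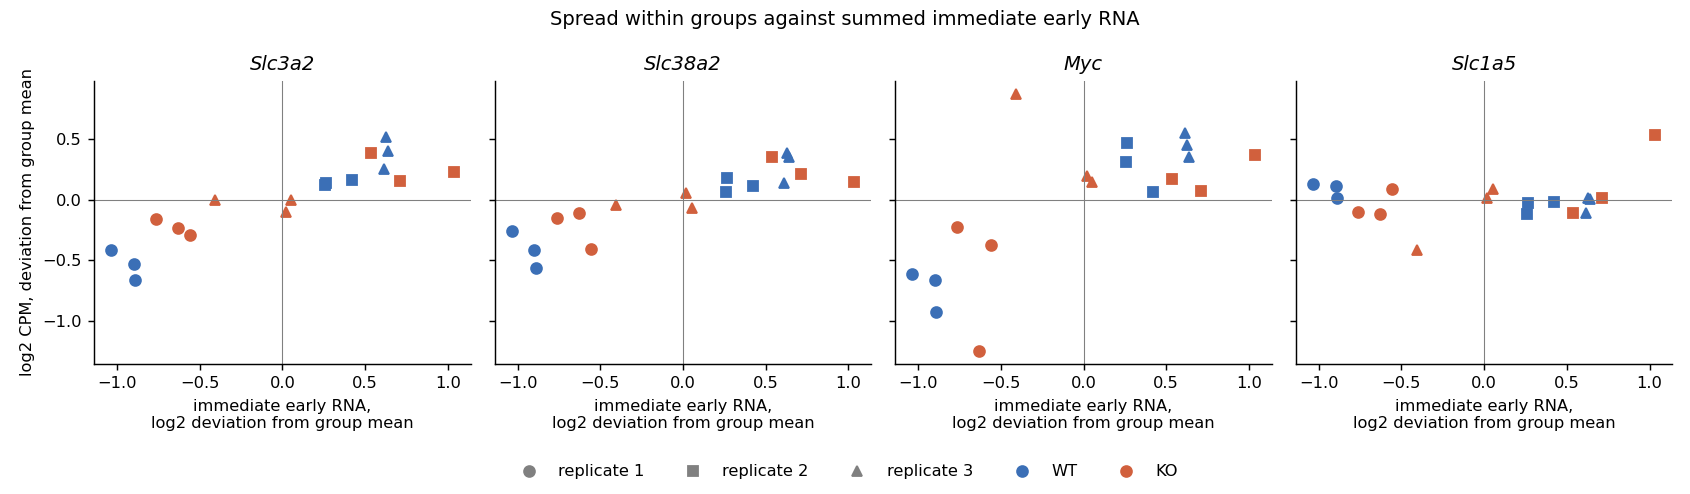
Deviation of log2 CPM from the group mean (y axis) for Slc3a2, Slc38a2, Myc and Slc1a5 against the same deviation of summed immediate early RNA (x axis), 1 point per library (symbols, replicate number; colours, genotype). The 6 replicate 1 libraries lie at the lower left for Slc3a2, Slc38a2 and Myc and near 0 for Slc1a5, whose farthest points are KO stage III replicates 2 and 3.

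The genes whose log2 CPM resembled each of the 8 most closely over the 18 libraries, by Pearson's r as a description, were Nudcd2, Rps19 and Arv1 for Slc7a5 (0.96, 0.94 and 0.93). For Slc3a2 they were Ddx3y, a Y-linked gene, with Actrt3 and Fos (0.93, 0.92 and 0.91), and for Slc38a2 they were Taf1d, Eif4a1 and Tor1aip2 (0.93, 0.90 and 0.90). Slc38a1 lay nearest to Fchsd2, Hk3 and Hvcn1 (0.96, 0.95 and 0.94), and Slc1a5 to Pla2g15, Arfgap2 and Nepro (0.94, 0.93 and 0.92). Myc lay nearest to Plscr1, Tigit and Myb (0.93, 0.92 and 0.89). The likeness was lower for Slc7a6 (Slc39a11, Pls3 and Eif4e2, 0.85 each) and for Tfrc (Eif4e2, Gm28935 and Snx4, 0.83, 0.83 and 0.81). These values mix differences between groups with those within them.

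The wider pathways are counted beside all tested genes, of which 9.82% fell from stage II to IV in WT and 8.76% in KO. Between KO and WT, 1.46%, 7.9% and 0.509% of tested genes were called at stages II, III and IV, and 5.45% over the mean of the stages. Of 28 other amino acid transporter genes 17 were tested, and edgeR called none of them between KO and WT at any stage. From stage II to IV, 2 of the 17 fell in WT, Slc36a4 (-1.09 ± 0.26, adjusted p = 0.00907), an intracellular amino acid transporter, and Slc7a1 (-0.78 ± 0.20, 0.0128), a carrier of cationic amino acids. In KO cells Slc36a4 fell by 0.91 ± 0.26 (adjusted p = 0.0235), and Slc38a9, the lysosomal arginine sensor, rose by 0.48 ± 0.16 (0.0468). The median of the 17 was -0.02 in WT and 0.00 in KO, beside -0.02 and 0.03 over all tested genes.

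Of 26 iron handling genes 23 were tested. Slc11a2, which encodes the iron transporter DMT1 that takes iron out of endosomes, fell from stage II to IV by 1.63 ± 0.11 in WT and 2.27 ± 0.12 in KO (edgeR adjusted p = 4.26e-08 and 7.38e-10). Steap3, an endosomal ferrireductase, rose by 1.22 ± 0.22 and 2.45 ± 0.23 (0.00101 and 7.76e-07). These 2 products act on iron delivered by the transferrin receptor, and their RNAs moved in opposite directions. Pcbp1, an iron chaperone, fell by 0.67 ± 0.18 and 0.60 ± 0.18 (0.0185 and 0.0317), so that 1 rose and 2 fell of 23 in each genotype (medians -0.16 and -0.06). Between KO and WT, Steap3 was lower in KO at stage II (-1.09 ± 0.23, adjusted p = 0.0164), and Hmox2, a heme oxygenase, was higher at stage III (0.59 ± 0.17, adjusted p = 0.0432).

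Among 15 tested genes of the Myc network, Mxd4, a repressor that competes with Myc for Max, rose from stage II to IV by 0.53 ± 0.11 in WT and 0.54 ± 0.11 in KO (edgeR adjusted p = 0.00251 and 0.00177). Mxi1, of the same family, rose by 1.45 ± 0.45 in WT (0.0362), and Mxd3 fell by 3.85 ± 0.99 (0.0134). Fbxw7, a ubiquitin ligase subunit that marks Myc for degradation, rose in KO by 0.49 ± 0.13 (0.0182). Between KO and WT none of the 15 was called at any stage, and Myc itself was not either.

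Of 32 Myc target genes for ribosome and nucleotide synthesis, all tested, 14 fell and 0 rose from stage II to IV in WT (median -0.55), and 8 fell and 0 rose in KO (median -0.28). In WT these included Shmt1, of one-carbon metabolism (-1.92 ± 0.32, adjusted p = 5.50e-04), and the polyamine enzymes Srm (-1.68 ± 0.29, 6.79e-04) and Odc1 (-1.19 ± 0.31, 0.0146). In KO they included Odc1 (-1.92 ± 0.32, adjusted p = 3.08e-04), Srm (-1.19 ± 0.29, 0.00805) and the nucleolar gene Nop16 (-0.90 ± 0.21, 0.00607). Between KO and WT, 1 rose and 2 fell at stage III: Nop16 was higher (1.0 ± 0.21, 0.0129), and Ccnd2 and Ppat were lower (-0.55 ± 0.14 and -0.49 ± 0.15, 0.0297 and 0.0491). None was called at stage II or IV.

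Of 26 cell cycle genes, 11 fell from stage II to IV in WT, with a median of -1.10. In KO 2 of 26 fell, near the share over all tested genes, with a median of -0.33. The fallen genes were led by Bub1, Ccnb2 and Birc5 in WT (-3.75 ± 1.11, -3.66 ± 0.80 and -3.18 ± 0.70, edgeR adjusted p up to 0.030). Markers of T cells, several of which immature NK cells also express, summed over 12 genes to 747 to 1156 CPM in WT stage II and 258 to 368 CPM in WT stage IV. Of these, Cd28 had 1009 to 17434 counts per library, Lef1 1986 to 5363 and Trac 124 to 483. Cd3d, Cd3g and Cd3e reached 2862, 2714 and 970 counts, while Cd4, Cd8a, Cd5, Cd6 and Themis had at most 33 in any library. The 11 B cell markers summed to 1017 to 1105 CPM and 229 to 322 CPM, mostly Ighm. Of the 8 tested B cell markers 3 fell in WT, Cd22, Ighm and Cd79b (-5.66, -1.77 and -1.72), and Cd79b was higher in KO at stage III (1.73), while Pax5 had at most 4 counts in any library. The 10 markers of type 1 innate lymphoid cells all fell from stage II to IV in both genotypes (medians -4.58 and -4.45), their sum going from 971 to 1636 CPM to 34 to 53.6 CPM in WT and from 1985 to 2399 CPM to 85 to 112 CPM in KO. The part of these cells and of cycling cells in the falls of Slc7a5, Slc38a1 and Myc was not tested.

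Of 34 tested genes of mTORC1 and amino acid sensing, the pathway that reads amino acid supply, 3 were higher in KO over the mean of the stages, where 2.93% of tested genes were: Castor1, an arginine sensor (0.46 ± 0.08, adjusted p = 0.00222), Sesn1, of the leucine-sensing Sestrins (0.37 ± 0.07, 0.00337), and Tbc1d7, a subunit of the TSC complex (0.41 ± 0.11, 0.0447). At stage III, 3 were higher and 2 lower, beside 5.16% of tested genes higher and 7.9% called, among them Eif4ebp1, a translation repressor that mTORC1 inactivates (0.79 ± 0.23, edgeR adjusted p = 0.0447), and Rraga, a GTPase that recruits mTORC1 to the lysosome (-0.65 ± 0.16, 0.0253). From stage II to IV Castor1 rose in both genotypes (0.48 ± 0.14 and 0.67 ± 0.14, adjusted p = 0.0290 and 0.00255), as did Nprl2, of the GATOR1 complex (0.79 ± 0.14 and 0.47 ± 0.14, 8.68e-04 and 0.0322). Sesn3 fell in both (-0.75 ± 0.19 and -0.82 ± 0.19, 0.0127 and 0.0063).

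Of 24 tested genes of the amino acid stress response, 5 fell and 0 rose from stage II to IV in each genotype (medians -0.07 and -0.06). They included Mthfd2, a mitochondrial folate enzyme (-1.56 ± 0.18 and -1.66 ± 0.18, adjusted p = 1.24e-05 and 4.00e-06), Psat1, of serine synthesis (-0.99 ± 0.15 and -0.70 ± 0.15, 2.55e-04 and 0.00417), and the transcription factor gene Cebpb (-1.35 ± 0.41 and -1.69 ± 0.41, 0.0354 and 0.00886). Mthfd2 was the only 1 called in KO against WT, over the mean of the stages (0.43 ± 0.10, edgeR adjusted p = 0.0191).

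IL-2 and IL-15 are known inducers of CD98, CD71 and Myc. Over the mean of the stages 4 of 15 genes of their receptor and its targets were higher and 1 lower in KO, with a list median of 0.05 against 0.01 over all tested genes, and 1 of 15 was called at stage IV. The called genes included the STAT5 targets Cish (1.04 ± 0.10, adjusted p = 7.79e-06) and Socs2 (0.99 ± 0.14, 2.44e-04) and the receptor chain Il2ra (0.97 ± 0.22, 0.0146), with the kinase Jak1 lower (-0.41 ± 0.07, 0.00144). At stage III Il2ra was higher in KO by 1.77 ± 0.35 and Cish by 1.18 ± 0.18 (edgeR adjusted p = 0.0096 and 0.00161). Cish and Socs2 were also higher in KO at stage II (1.53 ± 0.18 and 1.01 ± 0.23, edgeR adjusted p = 1.3e-04 and 0.0339). There 2 of 15 were higher and 1 lower. The part of this receptor and its targets in the level of Slc7a5 was not tested. From stage II to IV, 5 of 15 fell in WT and 4 in KO, with 0 and 1 rising. Il2ra fell in both (-5.54 ± 0.41 and -6.38 ± 0.42, adjusted p = 8.95e-08 and 1.34e-08).

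**Figure D5:**
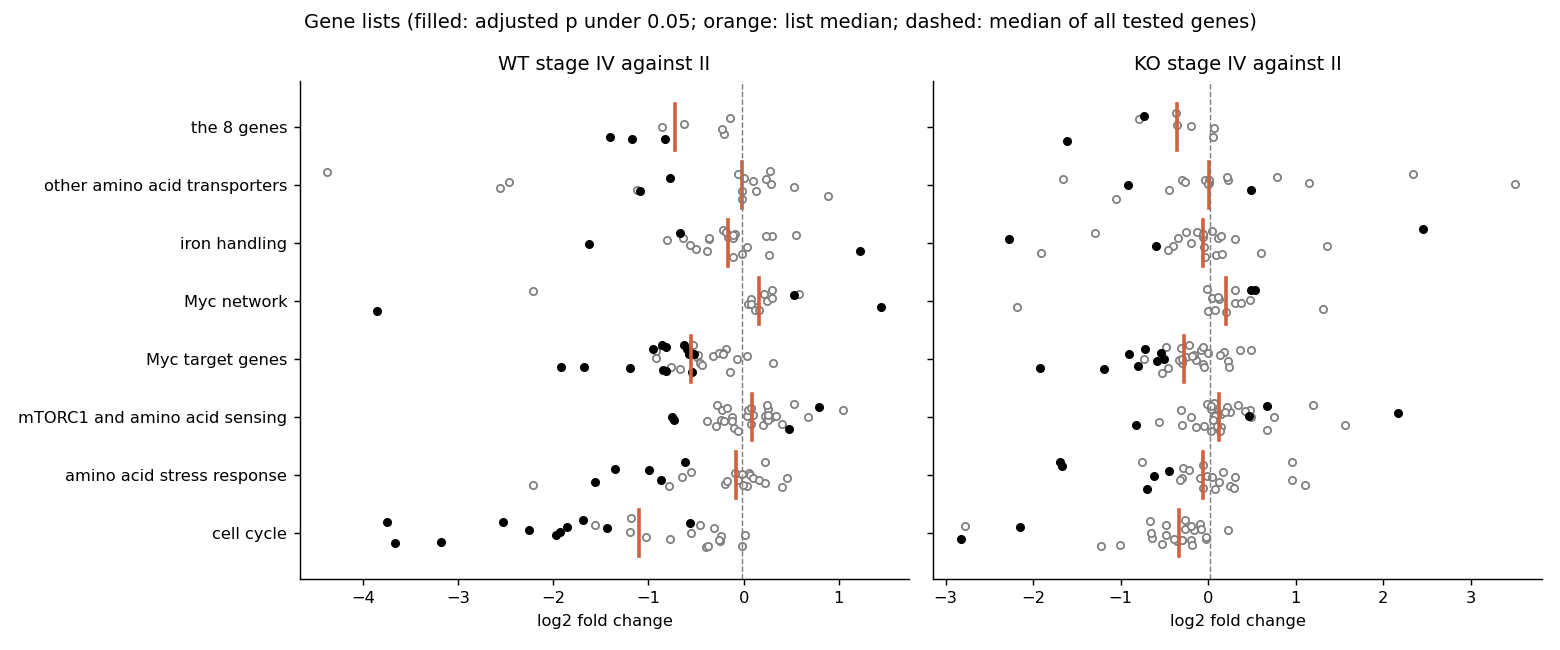
Log2 fold change of each tested gene of the lists (1 point per gene, rows) from stage II to stage IV in WT (left) and KO cells (right); filled points have an adjusted p under 0.05, the orange bar is the list median and the dashed line the median of all tested genes. The medians of the Myc target genes and of the cell cycle genes lie at -0.55 and -1.10 in WT and at -0.28 and -0.33 in KO.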

How the data were processed

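RNA of sorted NK cells was measured in 18 libraries, 3 in each of 6 groups. The submitters' processing notes name STAR 2.0.4 and Subread's featureCounts 1.4.5. Build and strand setting: not given in the sources used here. Headers of the deposited tables name, for each Ensembl gene, a raw read count, CPM and RPKM. The deposited RPKM was used only to compare levels between genes, and equals, within rounding, the deposited CPM divided by length in kilobases. IDs were matched to GENCODE M21 of GRCm38, which named 40254 of 41388. Reads shared with overlapping or antisense genes cannot be told apart without the strand setting.

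Counts were tested in 1 edgeR 4.0.16 quasi-likelihood fit (R 4.3.3) with a mean per group, TMM scaling and edgeR's filter by group (14156 genes), with Benjamini-Hochberg adjustment over all tested genes and a threshold of 0.05. An adjusted p is from this fit unless another tool is named. SE is the log2 change divided by the square root of F. The labels do not say which experiment a replicate number belongs to, so p-values measure the spread between these libraries. Deviations of same-numbered libraries from their group means correlated above 0.1 in each of the 3 pairs between any WT stages (0.13 to 0.49). This was also so between KO stages II and III (0.15 to 0.31), so the numbers are taken to pair these libraries. The pairing is read from the data, not from the labels. Over all pairs of groups, 25 of 45 same-numbered pairs correlated above 0.1, as did 18 of 90 differently numbered pairs (up to 0.63). Within WT, replicate 1 also differs from replicates 2 and 3 in Xist RNA. A shared experiment and the sex of the pool cannot be told apart there. KO stage II with WT stage IV passed too (0.13 to 0.29), a comparison not used here. Libraries of KO stage IV, and of KO with WT of the same stage, are not taken as paired. The block was fitted over all 18 libraries. Alternatives used DESeq2 1.42.0, voom of limma 3.58.1, other scalings and filters, a replicate block, a sex term, fewer libraries, and 2 choices made after seeing the data. On simulated data for KO against WT at stage III (14156 genes), the fit recovered 40% of 100 genes changed 2-fold and 67% of 100 changed 4-fold, with 4 false among 111 calls. The simulation gave each gene the same spread in all groups and did not model the uneven KO stage III libraries. It therefore does not measure false or missed calls in the real comparison.

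The 8 genes and the lists were chosen with earlier results of these data known. Named were all 8, Eomes, the 3 most changed called genes of a list in each direction of a comparison, and the 3 genes most like each of the 8. Not every comparison of every list is printed. A few genes of the iron and marker lists are not reported here. Promoters are from RefSeq (GRCm38.p6). TATAA and TGACG were searched after the sequences had been read.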

Additional observations from a re-analysis of the deposited data

How the results depend on the processing

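Each of 104 values (8 genes in 13 comparisons) was recomputed under at most 30 alternatives. No called value changed direction; 63 recomputed values lost a call, 57 gained one, and 125 that were called in neither fit changed sign. The number of the 8 genes called (edgeR unless named) moved as follows. KO against WT: stage II 0, but 1 with no low count filter and 1 without the 6 replicate 1 libraries. Stage III 1, but 0 with the filter at 5 CPM, which removed Slc7a5, without KO stage III replicates 1 and 3, with only the groups compared or without the replicate 1 libraries, 2 with the immediate early term, and 0 to 2 leaving out 1 library. Stage IV 0, but 1 with no filter and 1 without the replicate 1 libraries. Mean of stages 1, but 2 with no filter, without the replicate 1 libraries or with the immediate early term, 0 at 5 CPM or without KO stage III replicates 1 and 3, and 1 to 2 leaving out 1 library. WT III against II: 0, but 1 with voom. WT IV against III: 1, but 2 with DESeq2, the sex term, the immediate early term or without KO stage III replicates 1 and 3, 5 with voom, 4 with only the groups compared, 0 with library totals, and 0 to 2 leaving out 1 library. WT IV against II: 3, but 5 with DESeq2, voom, only the groups compared or without KO stage III replicates 1 and 3, and 1 to 3 leaving out 1 library. KO III against II: 0, and 0 to 2 leaving out 1 library. KO IV against III: 4, but 2 with voom, library totals or without the replicate 1 libraries, 0 with only the groups compared, and 1 to 4 leaving out 1 library. KO IV against II: 2, and 1 to 2 leaving out 1 library. Differences of the KO effect: 0 each, but 1 with voom in stage IV minus II, and 0 to 1 leaving out 1 library in stage III minus II and in IV minus III. Without KO stage III replicate 2, the calls gained in KO against WT at stage III and in both of those differences were of Slc1a5. Without the replicate 1 libraries, KO against WT also sets pools with Xist RNA against pools without it. The causes were not tested. A fit of only the groups compared has fewer libraries and its own estimate of the spread, which the main fit shares over all groups. Calls over all genes rose with it in comparisons without KO stage III, such as WT IV against II (2135 to 3663). They fell in those with KO stage III, such as KO against WT at stage III (1119 to 10) and KO IV against III (2509 to 224). The voom quality weights were 0.16 to 0.32 in KO stage III and 1.13 to 2.85 in WT stage III.

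Same-numbered libraries did not deviate together throughout between KO and WT, where 3 of 9 pairs of a stage had a correlation over 0.1 (-0.10 to 0.17) and 10 of 18 libraries were closest to their own number in the other genotype. With a replicate block 2 genes were called in the mean of stages, Slc7a5 and Myc (-0.68, adjusted p = 0.00758), 2 in WT IV against III and 5 in WT IV against II. In the stage comparisons whose libraries were taken as paired it changed no other call.

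KO against WT at stage III called 1119 of all genes, from 10 with only those groups to 4993 without KO stage III replicate 2. With scaling by library totals the median of all genes was -0.14 there, against 0.02, and 0.21 in KO IV against III, against 0.03, and the split of higher and lower calls went from 730 and 389 to 213 and 306, and from 896 and 1613 to 1161 and 903. Depth limits Slc7a5 most, with 26 to 130 counts.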
